A study of Mus musculus with 6 samples.

Results

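The nuclear-encoded subunits of oxidative phosphorylation were examined in dorsal skin of Bmal1-/- and Bmal1+/- mice. Members were the probe sets whose single platform gene symbol matched the names of complex I subunits (Nduf followed by a, b, c, s or v and a number), complex II subunits (Sdha to Sdhd), complex III subunits (Uqcr names and Cyc1), complex IV subunits (Cox4 to Cox8 names) or ATP synthase subunits (Atp5 names), with 1 probe set left out by name. The rule took 105 probe sets of 81 genes, out of 23410 probe sets that carry at least 1 gene symbol, and used no measured value. A further 6 probe sets carry several symbols of which at least 1 matches, and these name no single gene.

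Skin was taken at telogen, when hair follicles rest, from 3 Bmal1-/- mice, which carry no intact copy of the gene for the clock transcription factor BMAL1, and from 3 Bmal1+/- littermates, which carry 1 intact copy, all in the C57BL/6J background, with no treatment named in the labels. RNA of each mouse was hybridised to its own Affymetrix Mouse Gene 1.0 ST array, and each value is the linear intensity of a probe set. The mice were labelled postnatal day 22, except that a second label of Bmal1+/- replicate 1 gives day 23, and that mouse was the only male. Its labelled sex was borne out by Xist, with an intensity of 7.97 in that mouse and of 4826 to 5271 in the other 5. Arntl, the symbol of Bmal1, had 569 to 664 in Bmal1-/- mice and 325 to 365 in Bmal1+/- mice, and since no source used here places its probes relative to the deletion, this level does not check the genotype. No wild-type mice were in the comparison. Median intensity was 219 to 235.5 over the 6 arrays, the lowest correlation between any 2 arrays was 0.989, and the dimmest of the 8 keratinocyte markers in any mouse had an intensity of 1037.

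Oxidative phosphorylation is carried out in the inner mitochondrial membrane. Complex I and complex II pass electrons from NADH and succinate to ubiquinone, complex III passes them to cytochrome c, and complex IV passes them to oxygen. Complexes I, III and IV move protons out of the matrix, and ATP synthase, also called complex V, makes ATP as the protons return. Most subunits are encoded in the nucleus, and a few of the core subunits are encoded in mitochondrial DNA. NRF1, the ETS factor GABP and the estrogen-related receptors (ERR) are known regulators of these nuclear genes, and CLOCK and BMAL1 bind E-boxes.

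Because BMAL1 acts through E-boxes, the promoter windows of member genes were searched for that motif and for those of the other regulators. RefSeq windows (GRCm38.p6) of 300 bases, from 250 before to 50 after the start of the gene, were at hand for 66 of the 81 genes, in 71 windows. Both strands were searched. The E-box letters CACGTG were in 7 of the 71 windows (9.86%), of 6 genes, against 7.15% of all 32851 windows. The ERR letters TCAAGGTCA were in 2 member windows (2.82%), against 0.423% of all. The NRF1 letters GCGCATGCG were in 8 (11.3%), against 1.75% of all, and the same motif taken 1 base longer was in 5 (7.04%), against 0.971%. The ETS letters CCGGAAGT were in 5 (7.04%), against 3.89%. A match in these windows is a description of the letters and not a binding site.

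The 2 ATP synthase c-ring genes with an E-box, a complex II gene with an ERR match and a complex III gene with an NRF1 match are printed 5′ to 3′ on the strand of the gene, with the matched letters in capitals, since their intensities are described further on. The windows are Atp5g1 (chr11:96075582-96075881, minus strand), Atp5g3 (chr2:73911277-73911576, minus strand), Sdhd (chr9:50603800-50604099, minus strand) and Uqcrc1 (chr9:108936398-108936697, plus strand).
Atp5g1: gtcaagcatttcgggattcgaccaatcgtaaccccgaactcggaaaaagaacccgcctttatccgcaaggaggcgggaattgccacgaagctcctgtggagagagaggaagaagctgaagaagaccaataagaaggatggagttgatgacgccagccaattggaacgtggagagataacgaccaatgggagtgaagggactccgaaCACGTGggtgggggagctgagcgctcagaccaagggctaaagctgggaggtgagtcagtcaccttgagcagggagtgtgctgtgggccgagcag
Atp5g3: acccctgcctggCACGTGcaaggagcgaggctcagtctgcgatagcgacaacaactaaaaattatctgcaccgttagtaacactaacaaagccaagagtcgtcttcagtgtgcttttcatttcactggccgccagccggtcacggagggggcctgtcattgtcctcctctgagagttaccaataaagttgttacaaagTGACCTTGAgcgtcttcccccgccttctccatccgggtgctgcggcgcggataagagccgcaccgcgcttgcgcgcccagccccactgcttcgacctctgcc
Sdhd: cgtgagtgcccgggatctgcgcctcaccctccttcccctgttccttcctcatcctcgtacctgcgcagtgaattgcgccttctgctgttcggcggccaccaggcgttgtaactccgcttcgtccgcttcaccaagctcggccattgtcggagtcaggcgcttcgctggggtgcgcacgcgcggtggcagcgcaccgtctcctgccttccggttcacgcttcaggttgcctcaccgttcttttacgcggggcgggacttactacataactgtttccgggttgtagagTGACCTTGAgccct
Uqcrc1: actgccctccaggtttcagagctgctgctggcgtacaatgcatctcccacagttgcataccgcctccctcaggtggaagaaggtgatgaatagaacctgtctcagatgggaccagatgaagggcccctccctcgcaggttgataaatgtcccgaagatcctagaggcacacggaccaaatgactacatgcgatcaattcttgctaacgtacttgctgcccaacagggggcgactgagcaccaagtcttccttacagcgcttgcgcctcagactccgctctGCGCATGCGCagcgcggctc
In Atp5g3 the E-box begins 238 bases before the start and the ERR match 52 bases before it. The E-box of Atp5g1 begins 44 bases before the start. The ERR match of Sdhd begins 36 bases after the start, and in Uqcrc1 the NRF1 letters match on both strands, in 2 stretches that overlap and begin 30 and 31 bases after the start. No motif overlapped another motif in these 4 windows.

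Of the 105 member probe sets, 99 were higher and 6 were lower in Bmal1-/- skin than in Bmal1+/- skin on the scale log2(intensity + 16), and none passed the test. The lowest adjusted p of a member was 0.319 (limma with an intensity trend, two-sided, Benjamini-Hochberg over all 23410 probe sets, called under 0.05). Over all probe sets tested, the same rule called 0.132% lower and 0.0982% higher. The median log2 fold change of the members was 0.14, which is 10.1% higher in Bmal1-/- skin, with quartiles of 0.09 and 0.20. Over all probe sets tested 54.7% were higher and the median was 0.014, and over the 4078 probe sets with a mean intensity of 1000 or more 41.8% were higher and the median was -0.014. With 1 probe set for each gene, 76 of 81 genes were higher and the median was 0.14. Since all RNA came from whole skin, a difference in the number of cells of a type and a difference in the RNA of each cell cannot be told apart.

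At an unadjusted p under 0.05, 25 of the 105 member probe sets were higher and 1 was lower in Bmal1-/- skin, beside 4.17% of all probe sets higher and 4.6% lower. With 1 probe set for each gene, 18 of 81 were higher and 1 was lower. The count of 25 depended on single mice. The share of all probe sets that were higher at that p in the same fit is given in parentheses. The count was 55 (3.43%) without Bmal1+/- replicate 2 and 48 (3.34%) without Bmal1-/- replicate 2. It was 14 (4.08%) without Bmal1-/- replicate 1 and 8 (2.85%) without Bmal1-/- replicate 3. It was 7 (11.0%) without Bmal1+/- replicate 3, a smaller share of the 105 members than of all probe sets. It was 5 (2.84%) without Bmal1+/- replicate 1, the male. In 11 members all 3 Bmal1-/- mice lay above all 3 Bmal1+/- mice, and in 1 they lay below, beside 6.99% and 7.68% of all probe sets. These 11 include 5 probe sets of Atp5l and 2 of Cox5b, so they stand for 6 genes. Members are not independent of each other, since they were measured in the same 6 mice.

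**Figure D1:**
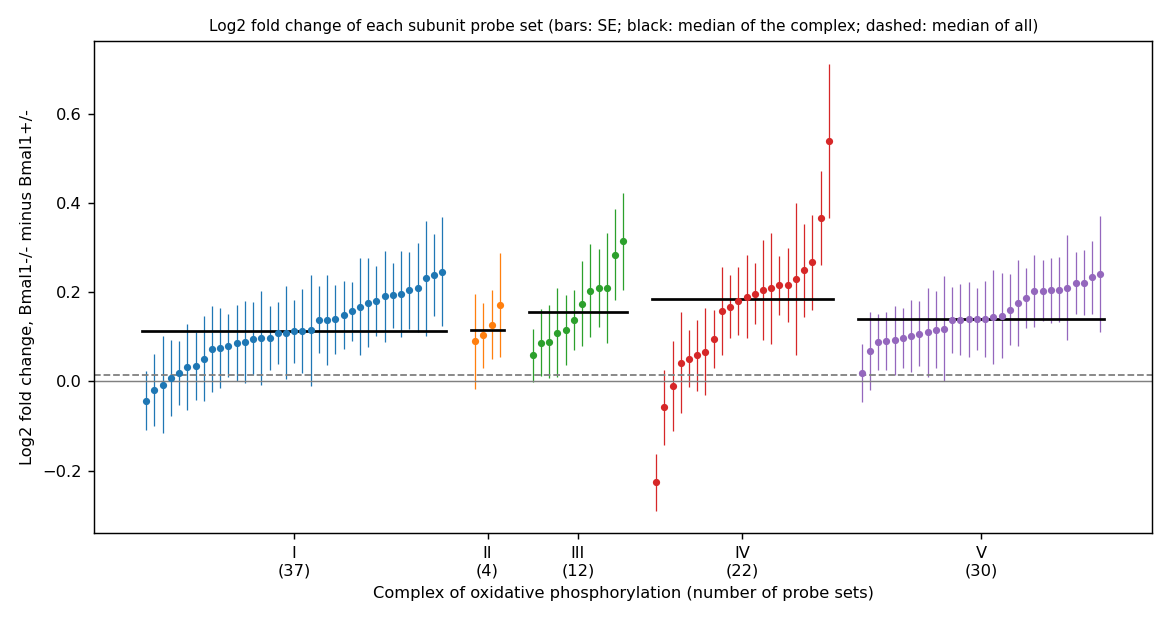
Log2 fold change of each member probe set, Bmal1-/- minus Bmal1+/-, ordered within complexes I to V, with bars of 1 SE from the fit, black lines at the median of each complex and a dashed line at the median of all probe sets tested. Of 105 points, 99 lie above 0, and the medians of the complexes lie between 0.11 and 0.18.

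The members moved together from mouse to mouse. As a deviation from the mean of the 6 mice, their median was 0.11, -0.026 and 0.13 on the log2 scale in Bmal1-/- replicates 1, 2 and 3, against -0.13, 0.06 and -0.13 in Bmal1+/- replicates 1, 2 and 3. The genotypes overlapped in this measure, because Bmal1+/- replicate 2 lay above Bmal1-/- replicate 2. Within the Bmal1-/- genotype, 11 of 105 members were above the genotype mean in replicate 2, compared with 75 in replicate 1 and 83 in replicate 3. In Bmal1+/- skin, 99 members were above the genotype mean in replicate 2, compared with 20 in replicate 1 and 17 in replicate 3. Over all 23410 probe sets tested, these counts were 9959, 12493 and 13241 in Bmal1-/- replicates 1, 2 and 3. In Bmal1+/- replicates 1, 2 and 3 they were 10271, 9600 and 14121. Leaving out 1 mouse gave a median log2 fold change between 0.11 and 0.20, with at least 94 of 105 members higher.

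Markers of striated muscle, a tissue rich in mitochondria that lies under the dermis, also set these mice apart. The summed intensity of 20 muscle markers was 133366, 123166 and 143917 in the Bmal1-/- mice, against 119952, 160213 and 134051 in the Bmal1+/- mice. It was highest in Bmal1+/- replicate 2, and within the Bmal1-/- genotype it was lowest in replicate 2. Groups other than muscle markers also differed between mice in this way. Of 77 genes of the mitochondrial ribosome, 73 were above the genotype mean in Bmal1+/- replicate 2 and 12 in Bmal1-/- replicate 2. For 12 genes of the tricarboxylic acid cycle these counts were 12 and 0. Fibroblast and keratinocyte markers, 8 of each, went the other way, with counts of 0 and 6 and of 1 and 7. Between the genotypes 8 of the 20 muscle markers were higher and 12 lower in Bmal1-/- skin, with a median log2 fold change of -0.019, and no muscle marker was at 0. Myh2, a fast myosin heavy chain, had a log2 fold change of -0.49 (unadjusted p = 0.00284, adjusted p = 0.236). Myoglobin, Mb, had -0.27 (unadjusted p = 0.196, adjusted p = 0.728). Mb had 831, 1208 and 1663 in the Bmal1-/- mice, against 1400, 1499 and 1404 in the Bmal1+/- mice, so the genotypes overlapped. Ryr1 and Des had the largest rises of the 20 muscle markers, 0.25 and 0.18. Of 9 white adipocyte markers 7 were higher, with a median of 0.17 and sums of 21359, 17719 and 22595 in the Bmal1-/- mice, against 18019.9, 19399 and 17304 in the Bmal1+/- mice. The adipokines Lep and Retn had log2 fold changes of -0.87 and 0.43 (unadjusted p = 0.157 and 0.135, adjusted p = 0.693 and 0.675). Lep had 86.3, 467 and 689 in the Bmal1-/- mice, against 675, 584 and 493 in the Bmal1+/- mice. Retn had 3589, 1984 and 1833 in the Bmal1-/- mice, against 1858, 2295 and 1248 in the Bmal1+/- mice. The genotypes overlapped in both, and Bmal1-/- replicate 1 was the lowest mouse for Lep and the highest for Retn. Of 6 brown adipocyte markers 4 were higher (median 0.057), with 0.26 for Pparg and 0.21 for Dio2. Pparg is also among the white adipocyte markers and had the lowest p of both lists (unadjusted p = 0.00221, adjusted p = 0.221). All Bmal1-/- mice lay above all Bmal1+/- mice in Pparg. Ucp1, the defining uncoupling protein of brown fat, had 50.3, 68.8 and 73.1 in the Bmal1-/- mice, against 64.8, 52.1 and 64.8 in the Bmal1+/- mice. The part of these cell types in the members' difference was not tested.

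**Figure D2:**
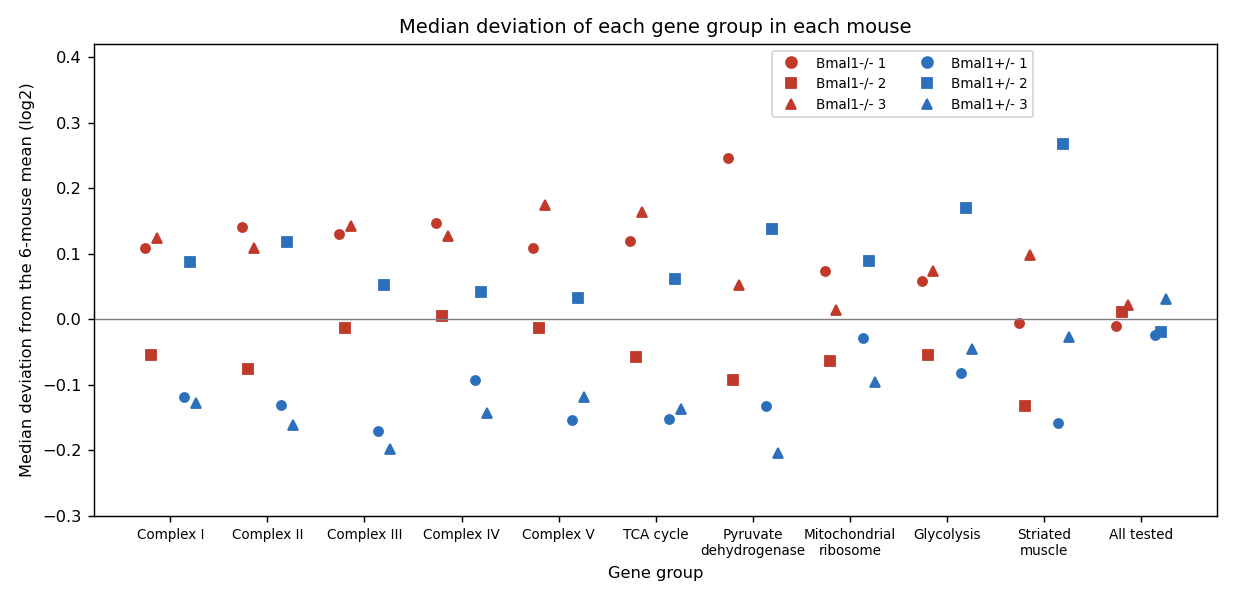
Median deviation of each gene group from the mean of the 6 mice on the log2 scale, with Bmal1-/- mice in red to the left of Bmal1+/- mice in blue and 1 symbol shape for each replicate number. In complexes I to V, Bmal1+/- replicate 2 lies above the other Bmal1+/- mice, and Bmal1-/- replicate 2 lies below the other Bmal1-/- mice.

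Complex I, which oxidises NADH, had 37 probe sets of 33 genes, of which 34 were higher in Bmal1-/- skin, with a median log2 fold change of 0.11. The 7 probe sets of core subunits, among them those that carry the flavin and the iron-sulfur clusters, were all higher (median 0.19). They stand for 6 genes, since 2 are of Ndufs3 and correlated at 0.999 over the 6 mice. Of the 30 probe sets of accessory subunits 27 were higher (median 0.10), and the difference between core and accessory subunits was not tested. Ndufs7, a core subunit that holds an iron-sulfur cluster near the ubiquinone site, had an intensity of 2855, 2332 and 2592 in the Bmal1-/- mice, against 2081, 2468 and 2046 in the Bmal1+/- mice. Only Bmal1+/- replicate 2 reached the range of the Bmal1-/- mice. The log2 fold change was 0.24 (SE 0.092, unadjusted p = 0.0284, adjusted p = 0.497). Ndufb9, an accessory subunit of the membrane arm, had 1096, 913 and 1141 in the Bmal1-/- mice, against 802, 1069 and 790.3 in the Bmal1+/- mice. Its genotypes overlapped through Bmal1+/- replicate 2, which lay above Bmal1-/- replicate 2, and the log2 fold change was 0.25 (SE 0.12, unadjusted p = 0.0745, adjusted p = 0.613), and 0.39 without Bmal1+/- replicate 2. The core subunits Ndufs1, Ndufv2 and Ndufv1 had log2 fold changes of 0.20, 0.20 and 0.035, and none passed.

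The lower end of complex I was close to 0. Ndufa11, an accessory subunit of the membrane arm, had 1253, 1298 and 1187 in the Bmal1-/- mice, against 1196, 1314 and 1345 in the Bmal1+/- mice, with the genotypes overlapping and a log2 fold change of -0.043 (SE 0.066, unadjusted p = 0.53, adjusted p = 0.882). Its other probe set had 0.073, and the pair correlated at 0.265 over the 6 mice, so this gene has no settled value here. Ndufa2, an accessory subunit, had 1207, 1030.1 and 1033 in the Bmal1-/- mice, against 1154, 1144 and 1013 in the Bmal1+/- mice, a log2 fold change of -0.019 (SE 0.081, unadjusted p = 0.82, adjusted p = 0.962). Its sign was not stable, with values of -0.094 to 0.019 when 1 mouse was left out.

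Complex II, succinate dehydrogenase, belongs both to the respiratory chain and to the tricarboxylic acid cycle. All 4 of its genes were higher in Bmal1-/- skin, with a median log2 fold change of 0.12. Sdhd, a membrane anchor whose window holds the ERR match shown above, had 1469, 1145 and 1217 in the Bmal1-/- mice, against 1093, 1321 and 988 in the Bmal1+/- mice. The genotypes overlapped, and the log2 fold change was 0.17 (SE 0.12, unadjusted p = 0.176, adjusted p = 0.71). It was 0.067 without Bmal1-/- replicate 1, 0.079 without Bmal1+/- replicate 3 and 0.28 without Bmal1+/- replicate 2. Sdha, the flavoprotein that oxidises succinate, had 4701, 4013 and 4719 in the Bmal1-/- mice, against 3944, 4417 and 3919 in the Bmal1+/- mice, a log2 fold change of 0.13 (SE 0.078, unadjusted p = 0.135, adjusted p = 0.674), and of 0.20 without Bmal1-/- replicate 2. Sdhb, the iron-sulfur subunit, and Sdhc, the other anchor, had log2 fold changes of 0.089 and 0.10.

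Complex III, which passes electrons from ubiquinol to cytochrome c, had 12 probe sets of 9 genes, all higher in Bmal1-/- skin, with a median log2 fold change of 0.16. Uqcrq, a small subunit of the complex, had 1101, 876 and 949 in the Bmal1-/- mice, against 710.3, 906 and 729 in the Bmal1+/- mice. Bmal1+/- replicate 2 lay above Bmal1-/- replicate 2, and the other Bmal1+/- mice lay below all Bmal1-/- mice. The log2 fold change was 0.31 (SE 0.11, unadjusted p = 0.0169, adjusted p = 0.445). Uqcrfs1, the Rieske iron-sulfur protein, had 1183, 1083 and 1374 in the Bmal1-/- mice, against 955, 1118 and 906 in the Bmal1+/- mice. The same pair of mice overlapped, and the log2 fold change was 0.28 (SE 0.10, unadjusted p = 0.0197, adjusted p = 0.454). Cyc1, the cytochrome c1 subunit, and Uqcrc1, a core protein whose window holds the NRF1 letters, had log2 fold changes of 0.20 and 0.21, with unadjusted p of 0.0797 and 0.0375 and neither passing after adjustment.

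Complex IV, cytochrome c oxidase, held the widest range, -0.23 to 0.54 over 22 probe sets of 18 genes, of which 19 were higher in Bmal1-/- skin (median 0.18). Cox5b, a nuclear subunit on the matrix side, had 4524, 4125 and 4360.0 in the Bmal1-/- mice, against 3555, 4118 and 3684 in the Bmal1+/- mice at its brighter probe set. The genotypes did not overlap there, although Bmal1-/- replicate 2 and Bmal1+/- replicate 2 were close to each other. The log2 fold change was 0.20 (SE 0.068, unadjusted p = 0.0166, adjusted p = 0.444), and the second Cox5b probe set had 0.22. These 2 probe sets correlated at 0.987 over the 6 mice and are not separate evidence. The catalytic core of this complex is encoded in mitochondrial DNA, and the 1 core gene measured, COX2, had a log2 fold change of -0.0084, while ND3, of complex I, had 0.009.

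Several subunits of complex IV have forms made mainly in particular tissues. Cox8b, the form of heart and skeletal muscle, had 2058, 1720.2 and 2598 in the Bmal1-/- mice, against 1148, 1816 and 1423 in the Bmal1+/- mice. Its genotypes overlapped, since Bmal1+/- replicate 2 lay above Bmal1-/- replicate 2. The log2 fold change was 0.54 (SE 0.17, unadjusted p = 0.0116, adjusted p = 0.401), the largest among the members. Cox8a, the widely expressed form, had 2719, 2067 and 1992 in the Bmal1-/- mice, against 1923, 1888 and 1831 in the Bmal1+/- mice. The genotypes did not overlap, with Bmal1-/- replicate 1 far above the rest, and the log2 fold change was 0.25 (SE 0.10, unadjusted p = 0.04, adjusted p = 0.543). Without that mouse it was 0.11. Cox8c, known from testis, was dim, with 151, 154 and 155 in the Bmal1-/- mice, against 115, 100.4 and 131 in the Bmal1+/- mice. All Bmal1-/- mice lay above all Bmal1+/- mice, and the log2 fold change was 0.37 (SE 0.11, unadjusted p = 0.00632, adjusted p = 0.324).

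Ndufa4l2, a hypoxia-responsive relative of Ndufa4, had the lowest log2 fold change of the members. Its intensities were 659, 697 and 657 in the Bmal1-/- mice, against 823, 792 and 749 in the Bmal1+/- mice. All 3 Bmal1-/- mice were below the lowest Bmal1+/- mouse, and the log2 fold change was -0.23 (SE 0.064, unadjusted p = 0.00581, adjusted p = 0.319). Its values were -0.26 to -0.20 when 1 mouse was left out. Ndufa4, a subunit of complex IV despite its name, had 4163, 3701 and 4097 in the Bmal1-/- mice, against 3335, 3903 and 3333 in the Bmal1+/- mice, with a log2 fold change of 0.18 (SE 0.076, unadjusted p = 0.0422, adjusted p = 0.552). Cox7a2l, which takes part in supercomplexes of complexes III and IV, had 851, 905 and 1008 in the Bmal1-/- mice, against 1029, 986 and 867 in the Bmal1+/- mice and a log2 fold change of -0.058 (SE 0.085, unadjusted p = 0.508, adjusted p = 0.875). The other Cox7a2l probe set had -0.011, and the pair correlated at 0.765 over the 6 mice.

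**Figure D3:**
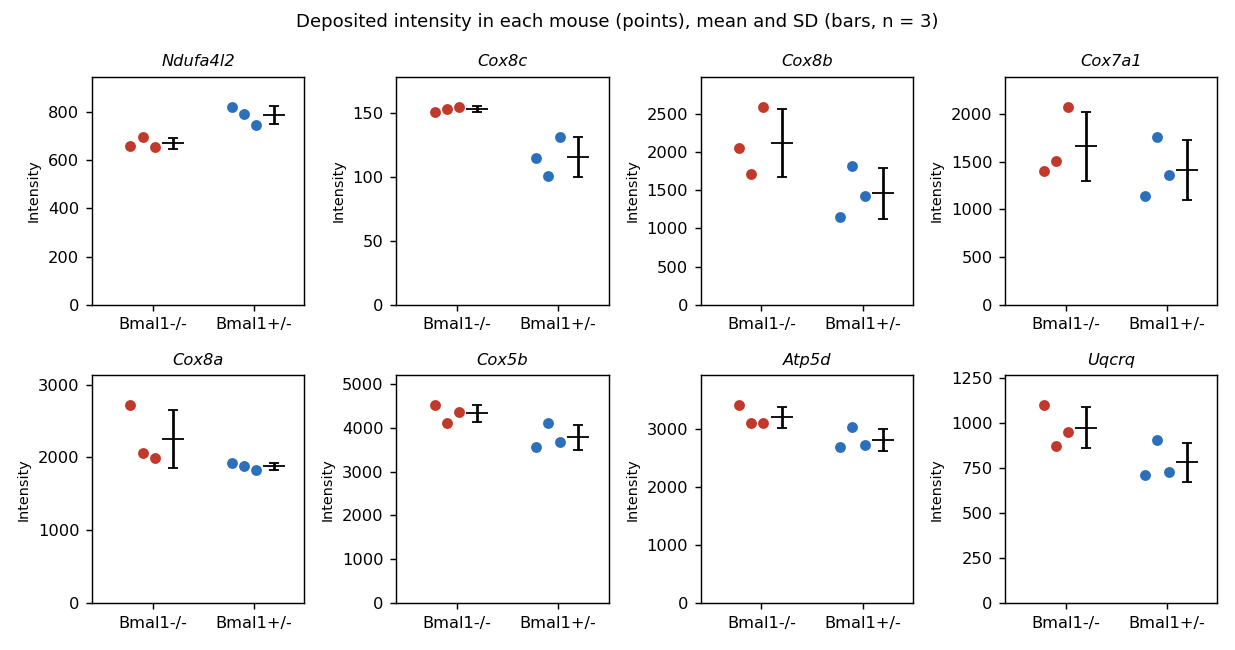
Deposited intensity (linear scale, axis from 0) of 8 members of complexes III, IV and V in each mouse, with Bmal1-/- mice in red on the left and Bmal1+/- mice in blue on the right, and black bars for the mean and SD (n = 3). Ndufa4l2 is lower in all 3 Bmal1-/- mice, Cox8c, Cox8a, Cox5b and Atp5d are higher in all 3, and Cox8b, Cox7a1 and Uqcrq overlap.

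For 8 pairs of related subunits, the log2 difference between the pair was compared between genotypes within each mouse, with an exact two-sided permutation test whose smallest possible p with 3 against 3 mice is 0.1. Only Ndufa4l2 minus Ndufa4 did not overlap, with differences of -2.63, -2.38 and -2.61 in the Bmal1-/- mice, against -2.00, -2.28 and -2.13 in the Bmal1+/- mice. The pair's difference was lower by 0.41 in Bmal1-/- skin (exact permutation p = 0.1, adjusted p = 0.6 over the 8 pairs). The muscle forms relative to their partners differed by 0.29 for Cox8b minus Cox8a and 0.18 for Cox7a1 minus Cox7a2 (exact permutation p = 0.5 for each, adjusted p = 0.667), with the genotypes overlapping in both. Both rested on single mice. Cox8b minus Cox8a ran from 0.053 without Bmal1-/- replicate 3 to 0.45 without Bmal1+/- replicate 2, and Cox7a1 minus Cox7a2 from 0.0041 without Bmal1-/- replicate 3 to 0.29 without Bmal1-/- replicate 1. Cox7a1, the muscle form, had 1401, 1511 and 2078 in the Bmal1-/- mice, against 1136, 1759.6 and 1359 in the Bmal1+/- mice, and Cox7a2 had 1215, 1219 and 1206 in the Bmal1-/- mice, against 1142, 1264 and 1111 in the Bmal1+/- mice. Cox4i2, a form known from lung, and Cox6b2, known from testis, had log2 fold changes of 0.058 and 0.066, against 0.17 for Cox4i1 and 0.095 for Cox6b1.

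ATP synthase had 30 probe sets of 17 genes, all higher in Bmal1-/- skin, with a median log2 fold change of 0.14. By position in the enzyme, the medians were 0.12 for the F1 head (2 probe sets), 0.12 for the central stalk (3), 0.16 for the c ring (6), 0.14 for the peripheral stalk (7) and 0.17 for the other subunits of the membrane part (12). Atp5l, subunit g of the membrane part, had 6 probe sets with log2 fold changes of 0.20 to 0.22, and in 5 of them the genotypes did not overlap. At 1 of these the intensities were 1524, 1445 and 1578 in the Bmal1-/- mice, against 1231, 1422 and 1293 in the Bmal1+/- mice. Bmal1+/- replicate 2 was the highest of its genotype and Bmal1-/- replicate 2 the lowest of its own, and the log2 fold change was 0.20 (SE 0.069, unadjusted p = 0.0148, adjusted p = 0.426). The 6 probe sets correlated at 0.968 to 0.997 over the 6 mice and are not separate evidence, and no source used here says whether some lie in near-identical copies of the gene. Atp5d, the delta subunit of the central stalk, had 3419, 3108 and 3104 in the Bmal1-/- mice, against 2695, 3034 and 2730.0 in the Bmal1+/- mice. The genotypes did not overlap, and the log2 fold change was 0.19 (SE 0.067, unadjusted p = 0.0194, adjusted p = 0.453).

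The c ring, which turns as protons pass, is encoded by 3 genes that give the same mature protein. Atp5g3, whose window holds an E-box and an ERR match, had 4396, 3886 and 4378 in the Bmal1-/- mice, against 3585, 3966 and 3231 in the Bmal1+/- mice, with Bmal1+/- replicate 2 above Bmal1-/- replicate 2. The log2 fold change was 0.23 (SE 0.082, unadjusted p = 0.0184, adjusted p = 0.45). Atp5g1, with an E-box, had 1411, 1127 and 1365 in the Bmal1-/- mice, against 1039.8, 1344 and 934 in the Bmal1+/- mice, a log2 fold change of 0.24 (SE 0.13, unadjusted p = 0.0941, adjusted p = 0.642). It was 0.39 without Bmal1+/- replicate 2 and 0.13 without Bmal1+/- replicate 3. Atp5g2, with an NRF1 match and no E-box in its window, had 2149, 1817 and 1829.8 in the Bmal1-/- mice, against 1816, 1917 and 1661 in the Bmal1+/- mice, a log2 fold change of 0.10 (SE 0.081, unadjusted p = 0.243, adjusted p = 0.756). It was 0.023 without Bmal1-/- replicate 1 and 0.046 without Bmal1+/- replicate 3. The differences between these 3 genes overlapped between genotypes, with exact permutation p of 0.9 for Atp5g1 minus Atp5g3, 0.2 for Atp5g2 minus Atp5g3 and 0.3 for Atp5g1 minus Atp5g2 (adjusted p = 0.9, 0.6 and 0.6). Of the other genes with an E-box, Atp5l is given above, and Atp5pb, Ndufa7 and Ndufv1 had log2 fold changes of 0.14, 0.11 and 0.035.

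Neighbouring pathways were compared through gene lists, and no gene of these lists was called. Of 12 genes of the tricarboxylic acid cycle 11 were higher in Bmal1-/- skin (median log2 fold change 0.14). Sucla2, a subunit of succinyl-CoA ligase, had 3196, 2845 and 3621 in the Bmal1-/- mice, against 2343, 2929.8 and 2495 in the Bmal1+/- mice, a log2 fold change of 0.31 (SE 0.10, unadjusted p = 0.0126, adjusted p = 0.407), and Idh3g, of isocitrate dehydrogenase, had 0.23. Of 11 genes of pyruvate dehydrogenase and its regulation 9 were higher (median 0.14). Pdhb, a subunit of its first enzyme, had 3435, 2576 and 2694 in the Bmal1-/- mice, against 2147, 2627 and 2184 in the Bmal1+/- mice, a log2 fold change of 0.32 (SE 0.11, unadjusted p = 0.0204, adjusted p = 0.457). Pdk4, a kinase that inhibits the enzyme, varied within both genotypes, with 395, 1433 and 3548 in the Bmal1-/- mice, against 355, 925 and 1082 in the Bmal1+/- mice and a log2 fold change of 0.82 (SE 0.67, unadjusted p = 0.249, adjusted p = 0.761).

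The other groups had medians nearer to that of all probe sets. Of 77 genes of the mitochondrial ribosome 48 were higher (median 0.024), with log2 fold changes of -0.34 for Mrpl48 (unadjusted p = 0.00168, adjusted p = 0.199) and 0.20 for Mrpl30. Of 17 genes of glycolysis, which runs in the cytosol, 9 were higher (median 0.016), with 0.20 for the lactate dehydrogenase subunit Ldhb and -0.17 for the muscle phosphoglycerate mutase Pgam2. Among assembly factors, 5 of 13 for complex I were higher (median -0.016) and 14 of 28 for complexes II to V (median 0.00090). Ndufaf5 and Ndufaf2 had log2 fold changes of -0.19 and -0.18, and Tmem70 and Cox15, which serve ATP synthase and complex IV, had 0.17 and 0.14. Of 16 regulators of mitochondrial biogenesis 6 were higher (median -0.034). Esrrb, an estrogen-related receptor, was dim, with 46.3, 54.5 and 60.8 in the Bmal1-/- mice, against 36.1, 44.1 and 37.7 in the Bmal1+/- mice. All Bmal1-/- mice lay above all Bmal1+/- mice, and the log2 fold change was 0.34 (SE 0.12, unadjusted p = 0.0219, adjusted p = 0.468). The brighter estrogen-related receptors Esrra and Esrrg went the other way, at -0.037 and -0.031. Nrf1 had -0.02, and the GABP genes Gabpa and Gabpb1 had -0.13 and -0.075. Twnk, the helicase of mitochondrial DNA, lay below in all Bmal1-/- mice, at -0.19 (SE 0.075, unadjusted p = 0.0287, adjusted p = 0.497). Ppargc1a, a coactivator of mitochondrial genes, had 279, 235 and 405 in the Bmal1-/- mice, against 179, 333 and 264 in the Bmal1+/- mice, with the genotypes overlapping and a log2 fold change of 0.23 (SE 0.22, unadjusted p = 0.326, adjusted p = 0.799). Of 14 genes for cytochrome c, carriers and uncoupling 8 were higher (median 0.055), among them Slc25a4, the ADP/ATP carrier of heart and muscle, at 0.20 (unadjusted p = 0.091), and Coq9, of ubiquinone synthesis, at 0.22. These medians were not tested against that of the subunits.

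**Figure D4:**
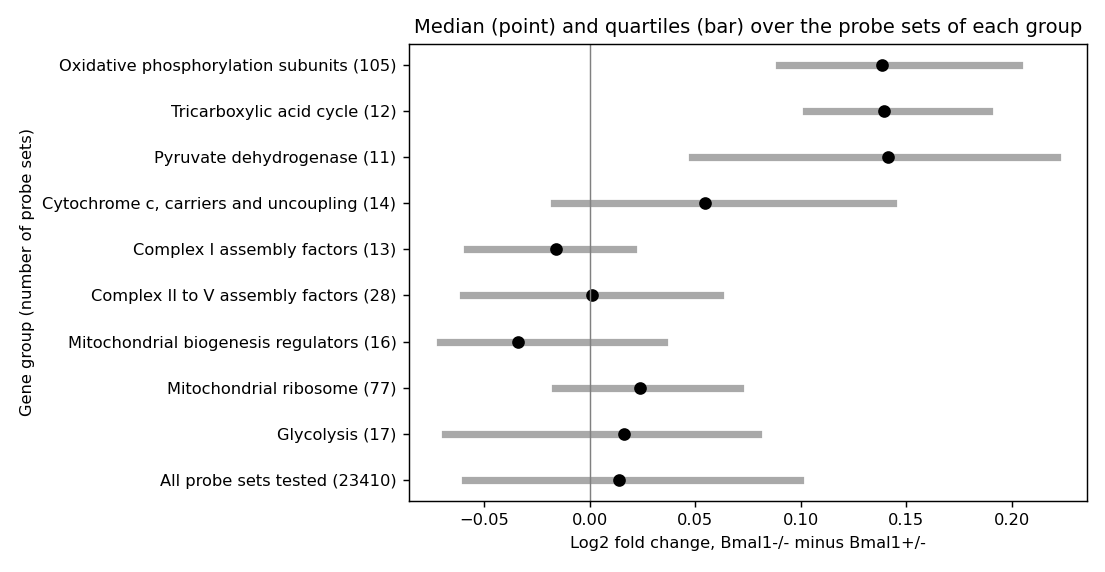
Median (point) and quartiles (bar) of the log2 fold change, Bmal1-/- minus Bmal1+/-, over the probe sets of each group, with the number of probe sets in parentheses. The subunits, the tricarboxylic acid cycle and pyruvate dehydrogenase have medians of 0.14, and all probe sets tested have 0.014.

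Markers of other skin cells differed in direction. Of 8 fibroblast markers 1 was higher in Bmal1-/- skin (median -0.15), with sums of 70437, 76677 and 68996 in the Bmal1-/- mice, against 82981, 75215 and 78401 in the Bmal1+/- mice. Of 8 keratinocyte markers 2 were higher (median -0.078), of 6 immune markers none was higher (median -0.10), and of 4 endothelial and blood markers all 4 were higher (median 0.13). Lum and Pdpn of the fibroblast list had log2 fold changes of -0.18 and -0.20. The 2 higher keratinocyte markers were Lor and Ivl, of the cornified envelope, with 0.17 and 0.23. The other keratinocyte markers, Krt1, Krt5, Krt10, Krt14, Krt15 and Trp63, were lower, from -0.14 for Krt1 to -0.035 for Krt10. The immune genes Cd68 and Cd3e had -0.19 and -0.14, and the endothelial genes Pecam1 and Tek had 0.17 and 0.23. The lowest adjusted p in any of these lists was 0.369, no marker was at 0, and their part in the members' values was not tested.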

How the data were processed

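Dorsal skin RNA of 6 mice was measured on 1 array each. The authors deposited linear probe set intensity values, for which the submitters' processing notes name Affymetrix Expression Console 1.1 and PLIER 2.0. No source used here gives the normalization, background correction or genome build. From these values log2(intensity + 16) was computed, which understates the fold change of dim probe sets, and the 23410 probe sets with a symbol in the platform annotation were fitted with limma 3.58.1 in R 4.3.3 (eBayes with trend, no covariate, two-sided, Benjamini-Hochberg). Of 35557 rows, 12147 carry no symbol and were not tested, and 1621 carry several. The number of arrays limits the precision.

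Genotypes came from the sample labels. Members, lists and tests were chosen with earlier results of these data known. Genes named were called members, members whose genotypes do not overlap at an unadjusted p under 0.05, the 2 largest rises and 2 largest falls of each complex, the isoform pairs, and 2 genes of each other list. Other genes were named after their values were seen, for their role. Genes with several probe sets were represented by the brightest in lists.

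Alternatives changed the offset (1 or 64), normalization, filter (mean under 64), rows tested, variance model, test, replicate block, sex term or left out 1 mouse. The Cyber-T type test (window of 101 probe sets, prior weight 10) stands for the test the study's methods name. It was run first with the window mean of variances. A version with the window mean of SDs was added after those counts had been seen, and with the counts of an earlier account of these data known, so both are given. The NRF1 motif was likewise shortened by 1 base after a first search, and both searches are given. The procedure was tested on simulated arrays. There, a larger share of the calls of both Cyber-T type tests than of limma's fell on unchanged probe sets. Because the prior weight of the Cyber-T type tests was fixed at 10, this share depends on how the simulated variances were set. It therefore does not rank the tests on the measured arrays, and no call made there was judged by it. Same-numbered mice of the genotypes had deviations that correlated at 0.078, -0.346 and 0.056, so the numbers were not taken to pair mice. Figures were drawn with matplotlib 3.10.9 in Python 3.11.15.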

Additional observations from a re-analysis of the deposited data

How the results depend on the processing

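The median log2 fold change of the members stayed between 0.11 and 0.20 under all 19 alternative fits, and 584 of 589 values of the 31 named probe sets kept their direction. A change of test, variance model, filter, rows tested or replicate block cannot alter a fold change, so direction is kept there by construction. Only the offset, normalization, sex term and left-out mice could move a fold change. No member was called in 18 of the 19 fits. The exception was the Cyber-T type test with window SDs, added after the first version had been seen, which called 1 member, Cox8b (adjusted p = 0.042), with 177 probe sets lower and 96 higher in Bmal1-/- skin over the whole table. The planned version, with window variances, called 0 members, 87 lower and 47 higher. limma as reported called 31 lower and 23 higher, testing all rows gave 19 and 15, and leaving out the variance trend gave 16 and 11. Leaving out 1 mouse gave 22 to 34 lower and 13 to 23 higher, with 0 members called each time. With the replicate block the median was 0.14 and 0 members were called. Ndufa2 reversed to 0.014 with the sex term and ran from -0.094 to 0.019 when 1 mouse was left out. Among isoform pairs, Cox6b2 minus Cox6b1 ran from -0.14 to 0.053 and Atp5g1 minus Atp5g3 from -0.030 to 0.082 when 1 mouse was left out. Leaving out 1 mouse also moved small values by over 1.5 times, to 0.059 to 0.39 for Cox7a1, 0.014 to 0.11 for Cox7a2, 0.058 to 0.15 for Cox6b1, 0.011 to 0.12 for Cox6b2, 0.0064 to 0.088 for Cox4i2, -0.13 to -0.0038 for Cox7a2l and -0.093 to -0.0091 for Ndufa11, and, among pairs, to -0.21 to -0.056 for Cox4i2 minus Cox4i1, -0.18 to -0.068 for Atp5g2 minus Atp5g3 and 0.066 to 0.24 for Atp5g1 minus Atp5g2. With 1 male mouse, the sex term and the fit without it give the same fold changes.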
